A study of Mus musculus with 60 samples.

Results

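Striatal gene expression was compared between mice given imipramine, a tricyclic antidepressant that blocks the reuptake of noradrenaline and serotonin, and naive mice that received no injection. All 12 imipramine arrays and all 12 naive arrays were taken by their label, 24 of the 60 arrays of the series, and each imipramine group was set against the naive group of the same time. Imipramine was given at 10 mg/kg as 1 intraperitoneal injection, and the striatum was collected at 1, 2, 4 or 8 h after it, with 3 arrays for each time. Naive mice were taken at the same 4 times, with 3 arrays each. All mice were C57BL/6J, 6 to 10 weeks old by the labels (the methods give a narrower range), and male according to the methods. The tissue held the rostral caudate putamen together with the nucleus accumbens, and each array held RNA pooled from 2 mice, so that the spread between arrays is a spread between pools. The difference between the conditions holds both the injection and the drug. The 12 saline arrays, 3 at each time, are therefore given beside the results that turn on it. They were set against the same naive arrays, so that the saline and imipramine differences share their controls.

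The striatum is made mostly of medium spiny neurons, inhibitory cells that carry dopamine D1 or D2 receptors and receive glutamate input from the cortex. In these neurons, calcium and cyclic AMP signals switch on immediate early genes within minutes, without new protein synthesis. Members of the Fos, Jun and Egr families are transcription factors of this kind. Handling, injection and other stressors are known both to raise such genes in the brain and to raise circulating corticosterone, which acts through the glucocorticoid receptor on a slower set of target genes in neurons, glia and blood vessels.

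The genes that passed the tests described here were Fosb and Egr2, and the bases ahead of their annotated starts are shown because both are genes whose promoters are known to be read by factors such as CREB and SRF. The sequences are from RefSeq on GRCm38.p6, written 5′ to 3′ on the strand of the gene, and capitals mark a CArG box, the site of SRF.
Fosb, chr7:19310046-19310295, minus strand: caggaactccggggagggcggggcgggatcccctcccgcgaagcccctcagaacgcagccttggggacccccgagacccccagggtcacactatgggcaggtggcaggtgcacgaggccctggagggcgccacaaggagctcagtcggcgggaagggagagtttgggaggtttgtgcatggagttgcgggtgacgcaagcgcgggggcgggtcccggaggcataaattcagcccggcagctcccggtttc
Egr2, chr10:67537619-67537868, plus strand: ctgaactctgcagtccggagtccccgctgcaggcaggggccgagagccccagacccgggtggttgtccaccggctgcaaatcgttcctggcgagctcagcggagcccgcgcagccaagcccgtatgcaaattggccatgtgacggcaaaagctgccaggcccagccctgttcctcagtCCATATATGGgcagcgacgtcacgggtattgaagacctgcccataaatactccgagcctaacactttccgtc
Both strands of the 250 bases were searched for the full cyclic AMP response element TGACGTCA, for the CArG box and for the palindromic glucocorticoid response element, and neither window held more than 1 of them. Of 32851 promoters of the same length, 1.55% held the first, 1.47% the CArG box and 0.387% the glucocorticoid response element. Only the genes that passed are shown. The Fosb window held none of the 3. Of the 5 starts annotated for Egr2, 4 held 1 CArG box, and 3 of those windows overlap, so that they show the same box. A match is a match of letters only.

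Over all genes, few probes separated imipramine from naive striatum. Fosb rose on the average over the 4 times and Egr2 differed at some time, while no probe passed at a single time. The threshold was an adjusted p under 0.05 in limma, with adjustment by Benjamini-Hochberg over all 45281 probes. On the average 1 probe passed, 0.00221% of those tested. The count was 0 (0%) at every single time, 1, 2, 4 and 8 h alike, and the methods' t-test also left 0 at each time after adjustment. The smallest adjusted p were 0.129, 0.183, 1 and 0.652. An F test over the 4 time-matched differences passed 2 probes (0.00442%), and an F test of whether the difference changed over time passed 0 (0%), with a smallest adjusted p of 0.27. At an unadjusted p under 0.05, 1959 probes (4.33%) were counted at 1 h, 1917 (4.23%) at 2 h, 1402 (3.1%) at 4 h and 1689 (3.73%) at 8 h. On the average there were 2030 (4.48%). These shares lie below 0.05, the part that such a threshold passes where nothing differs. The F test over the times counted 1644 and that of change over time 1512. With 3 arrays a group, precision is limited: an SE of 0.12 log2 units was typical of single times and 0.0558 of the average (medians over all probes). Values below are normalised log2 signals, so that differences are log2 fold changes, and a level cannot be compared between probes. Differences are those of the fit, in which arrays of 1 chip are correlated, so that they can depart from a plain difference of the printed array values. Signal over background is unknown here, and a probe near or below the common median of 7.57 is called dim.

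The largest components of variance followed the chip. Over the 24 arrays chip explained most of principal component 1 (R² = 0.992, with 32.3% of the variance), the condition little of it (R² = 0.00179), and chip most of principal component 2 as well (R² = 0.968, with 11% of the variance). The 60 arrays lay on 10 chips of 6. All 10 chips held imipramine and naive arrays, but 0 held both of the same time, so that a difference at a single time lies between chips, while the average draws on chips that held both conditions. Arrays of 1 group correlated at r = 0.977 to 0.993 with each other, and the highest correlation between any 2 arrays was 0.994662.

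Fosb, a partner of Jun proteins in the AP-1 transcription factor, was the gene that passed on the average. Its normalised log2 signal in imipramine striatum was 9.70, 9.68 and 9.69 at 1 h, 9.71, 9.40 and 9.28 at 2 h, 9.28, 9.20 and 9.16 at 4 h, and 8.72, 8.99 and 9.29 at 8 h. In naive striatum it was 9.14, 8.81 and 8.95 at 1 h, 8.87, 9.14 and 9.02 at 2 h, 8.87, 9.02 and 8.84 at 4 h, and 8.74, 8.80 and 8.99 at 8 h. All imipramine arrays lay above all naive arrays of their time at 1, 2 and 4 h, and the groups overlapped at 8 h. The difference was 0.66, 0.41, 0.32 and 0.19 at 1, 2, 4 and 8 h (SE 0.126 each), the largest at 1 h. On the average Fosb was 0.40 ± 0.0586 log2 units higher in imipramine than in naive striatum (SE, n = 12 each; 95% interval 0.28 to 0.51), a 1.32-fold difference, with an adjusted p of 0.000684 in limma. It lay above the naive mean of its time in 11 of 12 imipramine arrays, and the within-chip difference, with each array set against the mean of its time, was positive on 9 of 10 chips. The average without the 1 h arrays, an alternative chosen after seeing the data, was 0.31 and no longer passed (adjusted p = 0.925), while without the 2, 4 or 8 h arrays it passed (adjusted p = 0.0356, 0.00741 and 0.000919). The call on the average was also lost with array medians set equal in place of quantile normalisation (0.398, adjusted p = 0.0791) and with z-scores within each chip (adjusted p = 0.644). At single times the adjusted p of Fosb was 0.129 at 1 h, 0.998 at 2 h and 1 at 4 and 8 h.

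Saline-injected mice had Fosb values that overlapped those of imipramine mice at 2, 4 and 8 h and lay just below them at 1 h. The signals were 9.58, 9.51 and 9.63 at 1 h, 9.18, 9.78 and 9.58 at 2 h, 9.17, 9.18 and 9.25 at 4 h, and 8.84, 9.05 and 8.75 at 8 h. Saline was 0.36 higher than naive on the average (adjusted p = 0.00545 in limma) and imipramine 0.03 higher than saline (adjusted p = 1). No difference between imipramine and saline was detectable in Fosb.

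Egr2, a zinc finger transcription factor of the Egr family, passed the F test over the 4 times (adjusted p = 0.0291 in limma, against 0.0103 for Fosb). Its signal in imipramine striatum was 10.22, 10.22 and 9.85 at 1 h, 9.11, 8.97 and 8.96 at 2 h, 8.35, 8.18 and 8.68 at 4 h, and 8.71, 8.97 and 9.53 at 8 h. In naive striatum it was 8.73, 8.81 and 9.38 at 1 h, 9.20, 9.18 and 9.01 at 2 h, 9.11, 8.68 and 9.02 at 4 h, and 8.31, 8.03 and 8.43 at 8 h. All imipramine arrays lay above all naive arrays at 1 and 8 h. At 4 h they lay below, with the highest imipramine and the lowest naive array equal at 2 decimals, and at 2 h the groups overlapped. The differences were 1.08, -0.16, -0.50 and 0.86 at 1, 2, 4 and 8 h (SE 0.219 each), and the change over time did not pass (adjusted p = 0.27). On the average the difference was 0.32 ± 0.102 (SE, n = 12 each; adjusted p = 1). In saline striatum Egr2 was 10.17, 10.57 and 10.43 at 1 h, 9.34, 9.94 and 9.69 at 2 h, 8.83, 9.10 and 8.67 at 4 h, and 8.66, 8.63 and 8.20 at 8 h, and saline was 0.53 higher than naive on the average (adjusted p = 0.0368). Imipramine was 0.21 log2 units below saline on the average (difference -0.21, adjusted p = 1). The call of Egr2 was lost when any 1 of 10 arrays was left out, and also with chip as a fixed block (adjusted p = 0.181), a replicate block (0.0733), array medians set equal (0.109), z-scores within each chip (0.994) and only probes above the median (0.0507). The call of Fosb in the same test was lost with array medians set equal (adjusted p = 0.487), z-scores (0.994), a replicate block (0.0674) and the 24 imipramine and naive arrays alone (0.0669), and when imipramine 1 h replicate 2 (adjusted p = 0.126) or naive 1 h replicate 2 (adjusted p = 0.183) was left out.

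**Figure D1:**
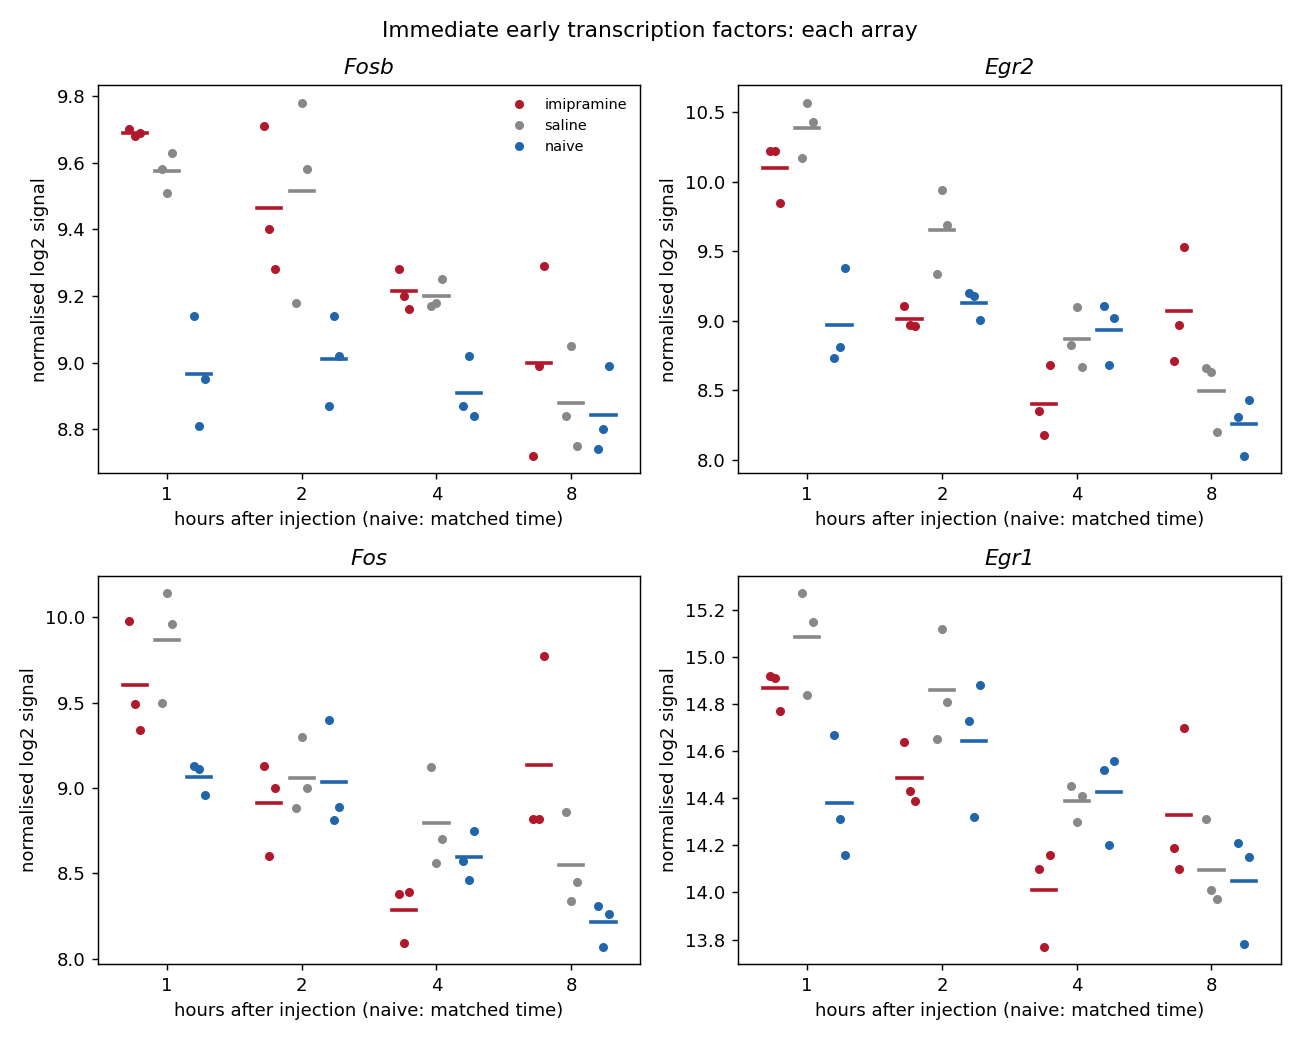
Normalised log2 signal (y axis) of Fosb, Egr2, Fos and Egr1 at 1, 2, 4 and 8 h (x axis), with each array as a point and the mean of 3 arrays as a bar, imipramine in red, saline in grey and naive in blue. Fosb lay above all naive arrays at 1, 2 and 4 h in imipramine mice, and Egr2 was 1.08 log2 units higher at 1 h and 0.50 lower at 4 h (difference -0.50).

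The other immediate early genes did not pass, and the sign of their differences varied with time. Of the 40 genes of the list, 39 were measured, and the medians and counts that follow include Fosb and Egr2. The median difference was 0.17 at 1 h, -0.07 at 2 h, 0.00432 at 4 h, 0.15 at 8 h and 0.06 on the average. Over all probes it was -0.001233, -0.003399, -0.0004399, 0.0005099 and -0.0004323. At 1 h 13 members were higher at an unadjusted p under 0.05, where 2.19% of all probes were, and 2 were lower, where 2.14% were. At 2 h 1 was higher (all probes 1.85%) and 4 lower (2.38%). At 4 h 2 were higher (1.61%) and 3 lower (1.49%), and at 8 h 8 were higher (1.87%) and 1 lower (1.86%). On the average 9 were higher (2.27%) and 2 lower (2.22%). The members above 0 numbered 29, 15, 20 and 32 at 1, 2, 4 and 8 h (49.6%, 48.9%, 49.8% and 50.2% of all probes). In saline mice 35, 24, 25 and 33 of 39 members were above naive at these times. The saline medians were 0.217, 0.055, 0.0832 and 0.0974, and 0.148 on the average. Imipramine minus saline had medians of -0.137, -0.0981, -0.123 and 0.0727, and -0.0842 on the average. Here and below, the lists were chosen with earlier results of these data known. Their counts can therefore not be read against the shares of all probes.

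Egr1 is a transcription factor of the same family as Egr2. Egr1 was bright, with signals of 14.92, 14.91 and 14.77 at 1 h, 14.64, 14.43 and 14.39 at 2 h, 14.10, 13.77 and 14.16 at 4 h, and 14.19, 14.10 and 14.70 at 8 h in imipramine mice. In naive mice the signals were 14.67, 14.31 and 14.16 at 1 h, 14.73, 14.32 and 14.88 at 2 h, 14.52, 14.20 and 14.56 at 4 h, and 14.21, 13.78 and 14.15 at 8 h. It was above naive in all arrays at 1 h and below in all at 4 h. The differences were 0.48, -0.19, -0.35 and 0.31 (SE 0.15 each), which average to 0.06 (adjusted p = 1). Egr3 and Egr4 differed by 0.36 and 0.71 at 1 h, and by 0.01 and -0.40 at 4 h, with an adjusted p of 1 on the average.

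Fos, the first described member of its family, had signals of 9.98, 9.49 and 9.34 at 1 h, 8.60 to 9.13 at 2 h, 8.38, 8.09 and 8.39 at 4 h, and 8.82, 8.82 and 9.77 at 8 h in imipramine mice. In naive mice they were 9.13, 9.11 and 8.96 at 1 h, 9.40, 8.81 and 8.89 at 2 h, 8.57, 8.46 and 8.75 at 4 h, and 8.31, 8.07 and 8.26 at 8 h. Imipramine arrays were all higher at 1 and 8 h and all lower at 4 h. The 8 h difference of 0.93 ± 0.226 did not pass (adjusted p = 0.794), and 1 of its 3 arrays, at 9.77, stood above the other 2. Fosl2, another partner of Jun proteins, differed by 0.58, 0.08, -0.16 and 0.36 at 1, 2, 4 and 8 h, and its average of 0.21 had an adjusted p of 1. Its other probes, which were dim, differed by -0.05 and 0.05 on the average. Junb and Klf2, both transcription factors, differed by 0.49 and 0.65 at 1 h, and Jun by 0.12. At 2 h Junb and Klf2 differed by -0.33 and -0.23, and on the average by 0.11 and 0.08. In the other direction, Ier5 differed by -0.24 at 1 h, and Klf6 and Bdnf by -0.54 and -0.47 at 2 h. Egr3, Egr4, Jun, Junb, Klf2, Ier5, Klf6 and Bdnf were picked from the list after their values were seen.

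Npas4 and Arc, genes of neuronal activity, had negative differences at some times, and neither passed. Npas4, a transcription factor switched on by calcium entry in neurons, had signals of 8.57, 8.92 and 8.68 at 1 h, 8.42, 8.38 and 8.73 at 2 h, 8.51, 8.38 and 8.79 at 4 h, and 8.60, 9.10 and 9.02 at 8 h in imipramine mice. In naive mice it was 9.15, 9.52 and 9.17 at 1 h, 9.19, 8.73 and 8.93 at 2 h, 9.02, 8.62 and 9.06 at 4 h, and 8.87, 8.71 and 8.65 at 8 h. All imipramine arrays were lower than all naive arrays at 1 h, and at 2 h 1 naive array lay level with the highest imipramine array. The differences were -0.56, -0.47, -0.25 and 0.19, and the average was -0.27 ± 0.0909 (adjusted p = 1). Saline was 0.15 above naive in the same gene, and imipramine was below saline by 0.42 (difference -0.42, adjusted p = 0.276). A second, dim probe of Npas4 differed by 0.02 on the average. Arc, which codes for a protein of active synapses, differed by 0.09, -0.66, 0.03 and 0.61 at 1, 2, 4 and 8 h (SE 0.304 each; average 0.02, adjusted p = 1). Saline was 0.44 above naive in Arc and imipramine below saline (difference -0.41, adjusted p = 1).

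Markers of cortical neurons, cells of the tissue next to the striatum, had medians of the same sign as the immediate early genes at 1, 2 and 8 h. At 4 h the immediate early median was only 0.00432, too small for its sign to be compared. The 13 measured markers of cortical excitatory neurons had a median difference of 0.22 at 1 h, -0.13 at 2 h, 0.11 at 4 h and 0.15 at 8 h, and 11, 4, 9 and 13 of them were above 0. Their mean level per array ran over 9.83 to 10.01 in imipramine and 9.29 to 9.85 in naive mice at 1 h, 9.50 to 10.08 and 9.80 to 9.94 at 2 h, 9.72 to 10.11 and 9.62 to 9.79 at 4 h, and 9.71 to 10.03 and 9.59 to 9.86 at 8 h. The 14 measured medium spiny neuron markers had medians of -0.13, 0.02, -0.17 and -0.04 at the 4 times, with 0, 9, 0 and 2 above 0. Their mean level per array ran over 12.05 to 12.21 in imipramine and 12.25 to 12.34 in naive mice at 1 h. At 2 h it ran over 11.99 to 12.40 and 12.18 to 12.24, and at 4 h over 11.92 to 12.30 and 12.28 to 12.36. At 8 h it ran over 11.96 to 12.21 and 12.03 to 12.20. The groups were apart at 1 h and overlapped at the later times. On the average 13 of 13 cortical markers were above 0 (median 0.07) and 0 of 14 medium spiny neuron markers were (median -0.07), and 49.7% of all probes were. Over the alternatives run, the cortical median on the average was 0.0185 to 0.0955 and the medium spiny median -0.0952 to -0.0413. At an unadjusted p under 0.05, 1 member of the cortical list was higher on the average, Slc17a6, a vesicular glutamate transporter (0.32). In the medium spiny list 1 member was lower, Gpr6, a receptor of D2-type neurons (-0.18). Each had an adjusted p of 1. Whether the Slc17a6 signal came from cortical cells was not tested. Drd1 and Drd2, the dopamine receptor genes, differed by -0.14 and -0.11. Signals of Drd1 were 12.65 to 13.30 in imipramine and 12.56 to 13.36 in naive mice, so that the defining markers of the labelled tissue were bright in both. Saline minus naive had cortical medians of 0.303, -0.165, 0.141 and 0.0819 at 1, 2, 4 and 8 h. Its medium spiny medians were -0.193, 0.142, -0.139 and 0.132. At 2 h its immediate early median was 0.055, of the opposite sign to its cortical median. On the average, saline was above naive in 10 of 13 cortical markers (median 0.0615) and 5 of 14 medium spiny markers (median -0.015). Imipramine minus saline had average medians of -0.0156 for cortical and -0.0846 for medium spiny markers. The part of tissue makeup in the differences of the immediate early genes was not tested. In bulk tissue, fewer cells of a type and less RNA per cell cannot be told apart.

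**Figure D2:**
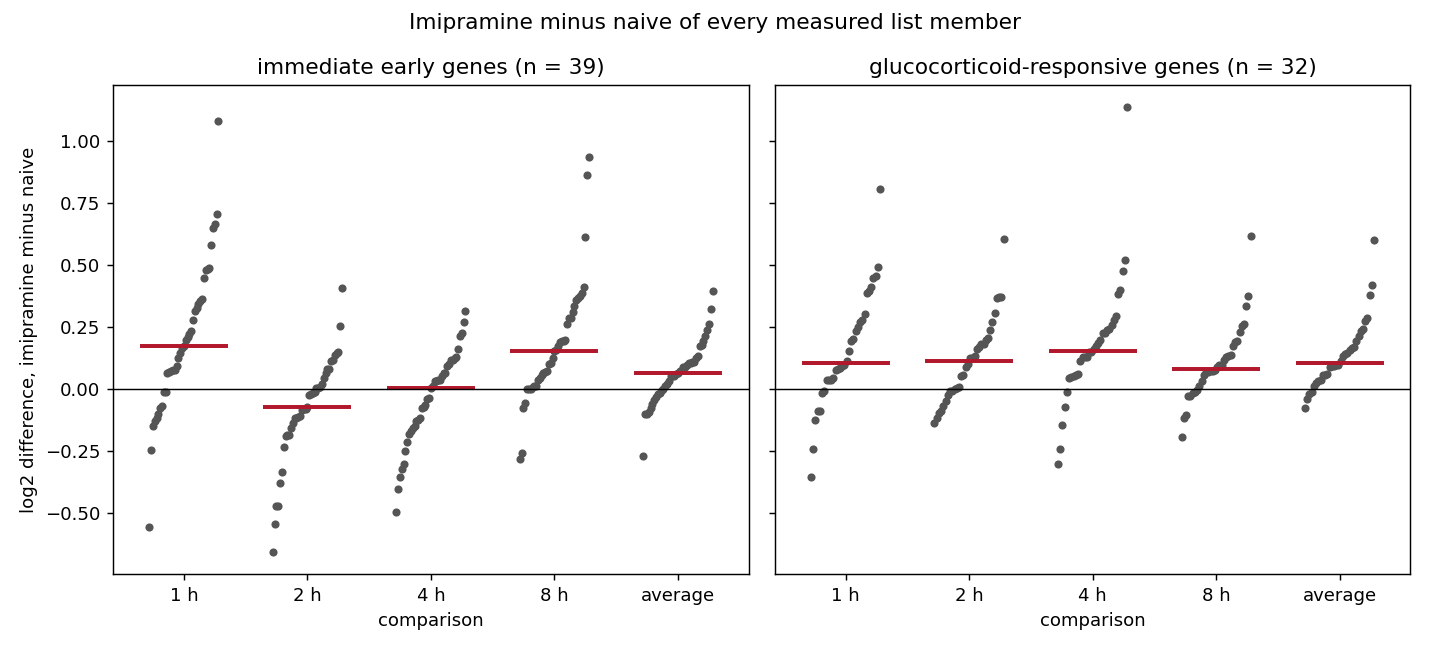
Log2 difference of imipramine minus naive (y axis) of each measured immediate early gene (left, 39 genes) and each measured glucocorticoid-responsive gene (right, 32 genes) at each time and on the average (x axis), with a grey point for each gene in order of value and a red bar at the median. The immediate early median was 0.17 at 1 h and -0.07 at 2 h, while the glucocorticoid-responsive median lay above 0 at all 4 times, from 0.0825 to 0.155.

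Glucocorticoid-responsive genes had a positive median difference at each time, and no member passed. All 32 genes of the list were measured. Of them, 25, 23, 27 and 24 were above 0 at 1, 2, 4 and 8 h (49.6%, 48.9%, 49.8% and 50.2% of all probes). The median difference was 0.105, 0.114, 0.155 and 0.0825 at these times and 0.104 on the average, with 28 of 32 above 0. On the average 12 were higher at an unadjusted p under 0.05 and 0 lower, beside 2.27% and 2.22% of all probes. Several members, Xdh and Gjb6 among them, are in network β of the paper, a set of drug-regulated genes found in part with these arrays. The list was also chosen with earlier results of these data known, so that its counts cannot be read against those shares. At the single times 6, 2, 7 and 3 were higher and 1, 0, 0 and 0 lower, the 1 being Mt2, a metallothionein. The shares of all probes were 2.19%, 1.85%, 1.61% and 1.87% higher and 2.14%, 2.38%, 1.49% and 1.86% lower. These counts cannot be read against them either. The mean level of the list per array was 10.15 to 10.38 in imipramine and 9.98 to 10.31 in naive mice. In saline mice 28 of 32 members were above naive as well, with a median of 0.143, and the median of imipramine minus saline was -0.0181.

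Plin4, which codes for a coat protein of lipid droplets, had the largest average difference in the list. It was 8.02, 8.46 and 8.68 at 1 h, 8.85, 8.73 and 9.12 at 2 h, 8.93, 9.35 and 8.60 at 4 h, and 9.65, 9.01 and 9.08 at 8 h in imipramine mice. In naive mice it was 8.24, 8.19 and 8.17 at 1 h, 8.98, 8.06 and 8.00 at 2 h, 8.10, 7.87 and 7.90 at 4 h, and 8.78, 8.29 and 8.60 at 8 h. The groups were apart at 4 and 8 h, and at 2 h 1 naive array lay among the imipramine arrays. The differences were 0.04, 0.61, 1.14 and 0.62 (SE 0.288 each), and the average was 0.60 ± 0.134, a 1.51-fold difference, with an adjusted p of 0.259. With only the 24 imipramine and naive arrays in the model the adjusted p was 0.0391, and with chip as a fixed block 0.0461. Saline was 0.45 above naive (adjusted p = 0.613) and imipramine 0.15 above saline (adjusted p = 1).

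Xdh, which codes for xanthine dehydrogenase, a purine-degrading enzyme, was above the naive mean of its time in 12 of 12 imipramine arrays. The signals were 8.30, 8.65 and 8.82 at 1 h, 8.34, 8.41 and 8.76 at 2 h, 8.27, 8.62 and 8.91 at 4 h, and 8.98, 8.72 and 8.52 at 8 h in imipramine mice, against 8.04, 7.95 and 8.13 at 1 h, 8.55, 7.99 and 8.18 at 2 h, 8.39, 8.29 and 7.81 at 4 h, and 8.33, 8.40 and 8.51 at 8 h in naive mice. The groups were apart at 1 and 8 h and overlapped at 2 and 4 h. The average was 0.42 ± 0.0924, a 1.34-fold difference with an adjusted p of 0.259, which was 0.0448 among probes above the median and 0.00792 with chip as a fixed block. Saline was 0.35 above naive (adjusted p = 0.418).

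Tsc22d3, which codes for the glucocorticoid-induced leucine zipper, and Gjb6, which codes for the astrocyte gap junction protein connexin 30, were also above the naive mean in 12 of 12 arrays. Tsc22d3 ran over 12.04, 12.32 and 12.61 in imipramine mice (lowest, median and highest of 12 arrays) and 11.58, 12.10 and 12.29 in naive mice. Its differences were 0.28, 0.37, 0.38 and 0.07, with an average of 0.28 ± 0.0689 (adjusted p = 0.509). A second probe of Tsc22d3 averaged 0.26, and another, dim one averaged -0.006045. Gjb6 ran over 12.03, 12.23 and 12.47 in imipramine mice and 11.85, 11.98 and 12.43 in naive mice, with an average difference of 0.24 ± 0.0575 (adjusted p = 0.359). Within chips, both were higher on 10 of 10.

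**Figure D3:**
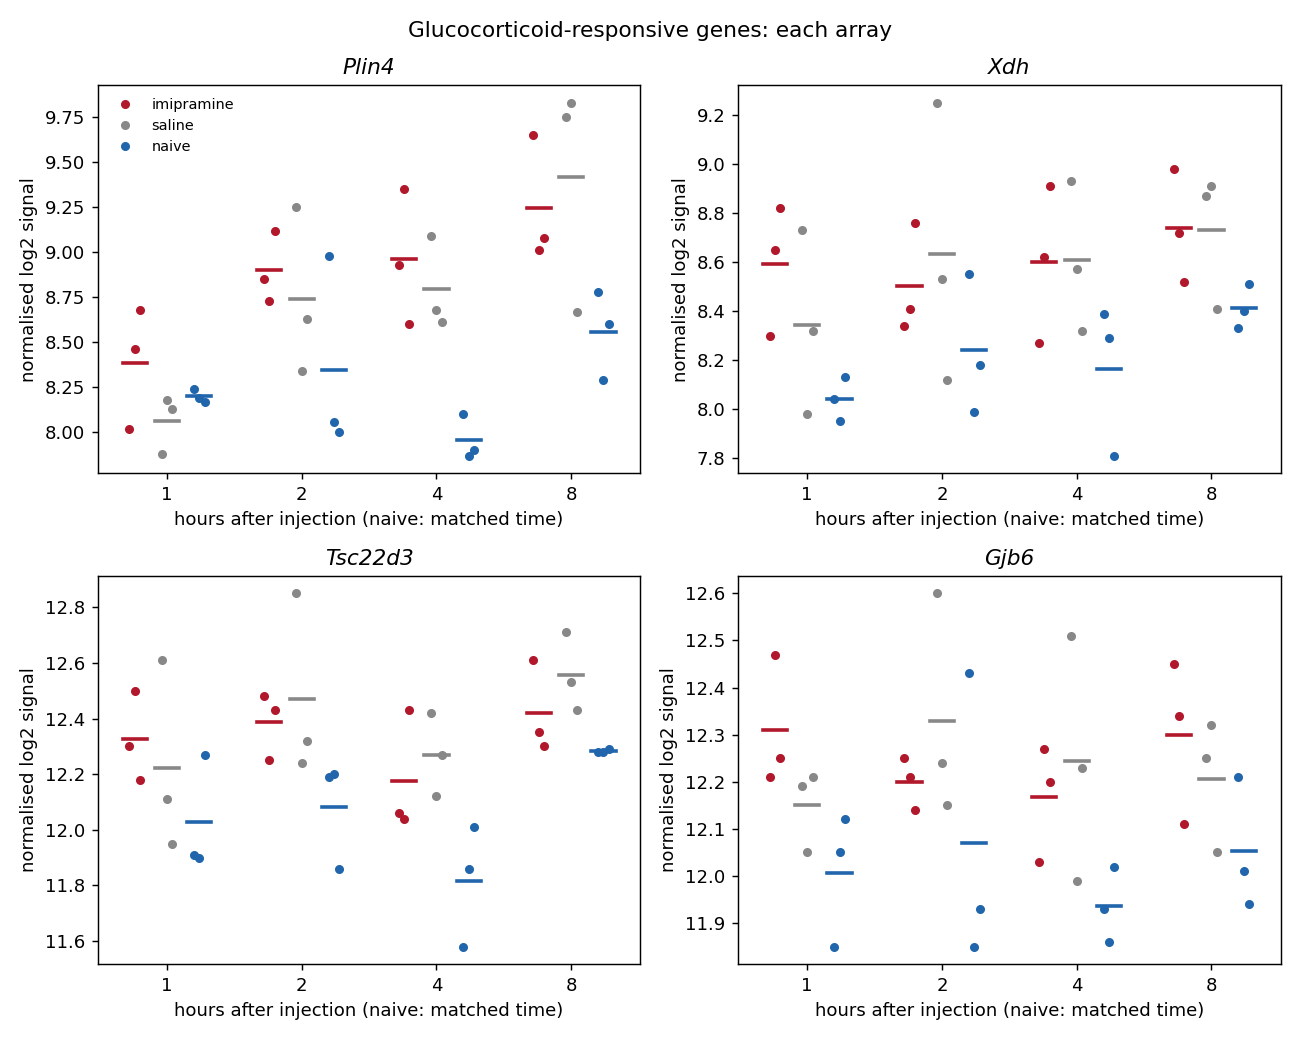
Normalised log2 signal (y axis) of Plin4, Xdh, Tsc22d3 and Gjb6 at 1, 2, 4 and 8 h (x axis), with each array as a point and the mean of 3 arrays as a bar, imipramine in red, saline in grey and naive in blue. Imipramine and naive arrays of Plin4 were apart at 4 and 8 h, and the average difference of Plin4 was 0.60.

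The other named genes of the glucocorticoid-responsive list did not pass either. Cdkn1a, a cell cycle inhibitor gene, ran over 9.49, 9.85 and 10.10 in imipramine mice and 9.16, 9.52 and 9.78 in naive mice, with differences of 0.41, 0.27, 0.40 and 0.07 and an average of 0.29 ± 0.0917 (adjusted p = 1). Its other probes averaged 0.25 and 0.22. Saline was 0.28 above naive in Cdkn1a, and imipramine differed from saline by 0.01. Fkbp5, a co-chaperone gene of the glucocorticoid receptor, differed by 0.04, 0.20, 0.24 and -0.03 and by 0.11 ± 0.0511 on the average (adjusted p = 1). Sgk1, a kinase gene named here after its value was seen, differed by 0.80 at 1 h and by 0.38 on the average. Angptl4, which codes for an inhibitor of lipoprotein lipase, averaged 0.23 above naive (0.006799 at a second, dim probe), against 0.03 for saline above naive, and the imipramine and saline difference of 0.20 did not pass (adjusted p = 1).

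No feedback inhibitor or clock gene passed. Of 18 MAP kinase phosphatases and feedback inhibitors 17 were measured, with a median of 0.0971 at 1 h, -0.00869 at 2 h, 0.00663 at 4 h, 0.144 at 8 h and 0.0601 on the average. On the average Dusp4, Dusp5 and Spry4 were higher at an unadjusted p under 0.05 (0.17, 0.18 and 0.12) and 0 were lower, beside 2.27% and 2.22% of all probes. For the 20 measured clock and clock output genes the average-difference median came to 0.0234. Of these, Bhlhe40, a repressor of the clock, was higher at 0.19 ± 0.0683 and Dbp, a clock output gene, lower at -0.15 ± 0.0563, each with an adjusted p of 1. At 1 h Dbp was 13.12, 13.34 and 13.08 in imipramine mice and 13.57, 13.58 and 13.83 in naive mice, and the groups did not overlap. That difference was -0.46 ± 0.121 (adjusted p = 1), and the later ones were -0.14, -0.04 and 0.03. Per1, a clock gene that light and glucocorticoids induce, differed by 0.45, -0.14, -0.30 and 0.37.

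No member of the other gene lists passed. At an unadjusted p under 0.05, 2.27% of all probes were higher and 2.22% lower on the average, and the counts of members stand beside these shares. The 25 measured targets of monoamine, histamine and muscarinic drugs had a median of 0.0182, with 0 members past an unadjusted p of 0.05 on the average in either direction. Slc6a4 and Slc6a2, which code for the serotonin and noradrenaline transporters that imipramine blocks, were dim, at medians of 7.25 and 7.36 in imipramine and 7.25 and 7.47 in naive mice, and differed by 0.002378 and -0.04. Heat shock chaperones had a median of 0.0164 with 2 of 23 higher (Ahsa1 and Hspa1l), and inflammation genes 0.0247 with 1 of 19 higher (S100a8). PPAR and fatty acid oxidation genes had a median of 0.0301 with 2 of 21 higher, Angptl4 and Plin4, neither of them an oxidation enzyme. Integrated stress response genes had a median of 0.00968 with 1 of 18 higher (Ddit4). None of these 4 lists had a lower member. Cold-inducible RNA-binding genes had a median of -0.0191 over 4 genes and cholesterol synthesis genes -0.019 over 15, with 0 members past that p in either. Angptl4, Plin4 and Ddit4 are members of the glucocorticoid-responsive list as well. Mtor, the growth kinase gene, differed by 0.14 ± 0.0505 (adjusted p = 1), Homer1 by -0.02, Dusp1 by 0.09 and Cirbp by -0.04.

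Among glia, vessels and blood, the marker medians on the average ran from -0.0499 for blood cells to -0.00454 for astrocytes. At an unadjusted p under 0.05, where 2.22% of all probes were lower and 2.27% higher, microglia markers had 2 of 13 lower, Cx3cr1 (-0.16) and Trem2 (-0.13), oligodendrocytes 1 of 13, Opalin (-0.20), astrocytes 2 of 13 higher, Gjb6 (0.24) and Slc1a3 (0.12), and vessels 1 of 15 higher, Pecam1 (0.12). Gjb6 is a member of the glucocorticoid-responsive list as well. Blood cell markers had 0 of 9 in either direction. The largest single value in these lists was that of Ttr, a gene of the choroid plexus, with a difference of -0.63 ± 0.567. Its signals ran over 10.29, 11.08 and 13.76 in imipramine mice and 9.13, 11.78 and 14.49 in naive mice, a spread between arrays that was wider than the difference. Among interneuron markers, Calb2, a calcium-binding protein gene, was higher by 0.41 ± 0.152 (adjusted p = 1).

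**Figure D4:**
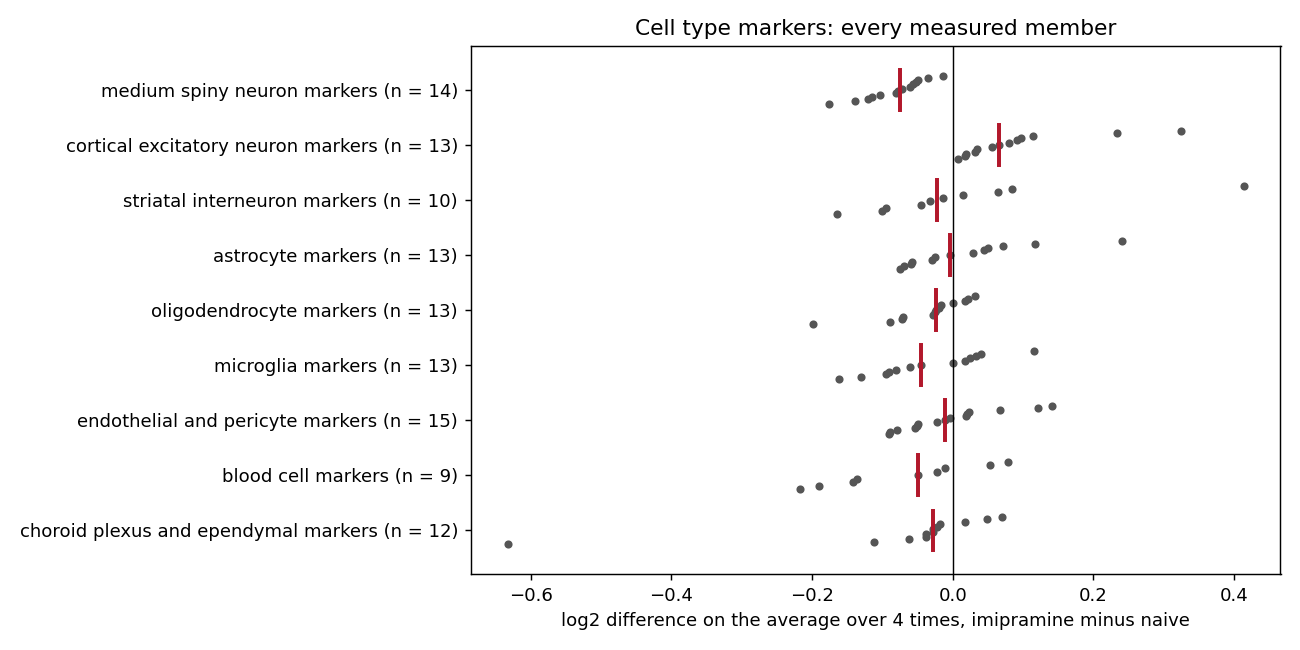
Log2 difference of imipramine minus naive on the average over 4 times (x axis) for each measured marker of 9 cell types (y axis), with a grey point for each gene and a red bar at the median. All 14 medium spiny neuron markers lie below 0 and all 13 cortical excitatory neuron markers above it.

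In the higher direction, Acer2 had the smallest p on the average after Fosb, and it did not pass (0.42, adjusted p = 0.064 in limma). The smallest p in the lower direction did not pass either. On the average these were Efcab7 (-0.28 ± 0.0522, adjusted p = 0.0621), Ercc2, which codes for a DNA helicase of transcription and repair (-0.28 ± 0.0616, adjusted p = 0.259), and Ptpn6, which codes for a phosphatase of blood cells and microglia (-0.23 ± 0.0519, adjusted p = 0.259). A second probe differed by -0.16 for Efcab7 and by 0.07 for Ptpn6, and 2 brighter probes by 0.16 and -0.09 for Ercc2. Efcab7 was dim, at 6.75, 7.03 and 7.27 in imipramine mice and 6.90, 7.28 and 7.65 in naive mice, and it passed when any 1 of 5 arrays was left out. Ercc2 was also dim, at 6.87, 7.09 and 7.55 in imipramine mice and 7.12, 7.47 and 7.63 in naive mice. Ptpn6 ran over 8.24, 8.55 and 8.71 in imipramine mice and 8.46, 8.75 and 9.13 in naive mice, and 0 of 12 imipramine arrays lay above the naive mean of their time.

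At the single times the smallest p also belonged to scattered genes. At 1 h Bud23, an RNA methyltransferase gene, was 10.86, 11.08 and 11.01 in imipramine mice and 10.60, 10.36 and 10.61 in naive mice, a difference of 0.46 ± 0.0897 with no overlap (adjusted p = 0.132), and its other probes differed by 0.03 and 0.17. In saline mice it was 10.96, 10.89 and 11.04. At 2 h Mgat5, a gene of N-glycan branching, was 9.50, 9.57 and 9.68 in imipramine mice and 9.87, 10.16 and 10.19 in naive mice, a difference of -0.49 ± 0.0938 (adjusted p = 0.183), which passed without naive 2 h replicate 1 (-0.59, adjusted p = 0.0142). Its 3 other probes, all dim, differed by 0.02 to 0.07 at 2 h. Kif1b, a kinesin motor gene, differed by -0.54 ± 0.113 at 2 h (adjusted p = 0.338), and its other probes by -0.42 to 0.09. At 4 h Gkn3 was 8.78, 8.79 and 8.68 in imipramine mice and 9.32, 9.56 and 9.36 in naive mice, a difference of -0.64 ± 0.143 (adjusted p = 1). At 8 h the smallest p were those of Vmn1r30 (-0.495), Flacc1 (0.51) and Abcd2 (-0.45), the first 2 of them dim. At 8 h the other probes differed by -0.14 to 0.06 for Vmn1r30, by -0.15 for Flacc1 and by -0.08 for Abcd2. Of the 107 named genes, 8 had all imipramine arrays above all naive arrays at 1 time and below them at another. The share over all probes was 1.87%, but some of the 107 were named for a small p at a single time or for change over time, so that the count cannot be read against it.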

How the data were processed

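Striatal RNA, pooled from 2 mice for each array, was hybridised to Illumina mouse whole-genome bead arrays. The deposited log2 signals are not normalised between arrays, with medians of 7.02 to 8.76 over the 24 imipramine and naive arrays. Whether the background subtraction of the study's methods was applied to them is not stated. A second deposited table, quantile normalised by the authors on the log2 scale (median 7.72), served as an alternative. All columns were read, and 0 were left unused.

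The signals were quantile normalised to a common median of 7.57, and a mean for each of 20 groups was fitted over 60 arrays in limma 3.58.1 (R 4.3.3, statmod 1.5.0), with chip as a random block (consensus correlation 0.201) and moderated variances (9.86 prior and 40 residual degrees of freedom). Tests were 2-sided, with Benjamini-Hochberg adjustment over 45281 probes, a threshold of 0.05 and 95% intervals. The pipeline was run on simulated data, in which probes were independent and a difference was the same at all 4 times. That run cannot speak to differences that vary over time. Most but not all same-numbered imipramine and naive arrays deviated together, and the replicate number was used as a block in an alternative only. Of the probes, 34885 had 1 symbol, 18 several and 10378 none, and 34807 matched an identifier in RefSeq.

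Named genes were the 10 of smallest p in each direction among those that passed in each test or, where none passed, the 3 of smallest p in each direction, with up to 4 of smallest p from each of 20 lists and the example genes of the study. A gene was represented by its brightest passing probe, or else its brightest, except that a gene named for its p is given at the probe with that p, with its other probes beside it where they differ. The members and lists were chosen with earlier results of these data known. Alternatives were other normalisations, filters, chip terms, array subsets, leaving out each array and the methods' t-test.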

Additional observations from a re-analysis of the deposited data

Results flagged for a closer look

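Among the 107 named genes, 8 had all 3 imipramine arrays above all 3 naive arrays at 1 time and below them at another. Over all probes the share was 1.87%, but some of the named genes were chosen for a small p at a single time or for change over time, so that the count cannot be read against it. This criterion was set after seeing the data. The F test of change over time in limma passed none of them, with an adjusted p of 0.27 for Egr2, 0.963 for Vmn1r30 and 1 for the other 6.

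The difference of Egr2 was 1.57 log2 units higher at 1 h than at 4 h, that of Egr1 0.837 higher at 1 h than at 4 h, and that of Per1, a clock gene, 0.75 higher at 1 h than at 4 h. The difference of Fos was 1.12 higher at 8 h than at 4 h. The difference of Lrp5, a Wnt co-receptor gene, was 0.66 higher at 1 h than at 8 h, and that of Vmn1r30, a vomeronasal receptor gene with a dim probe, 0.679 higher at 1 h than at 8 h. The difference of Pecam1, a vessel marker, was 0.465 higher at 1 h than at 2 h. The difference of Chrm2, a muscarinic receptor gene, was 0.372 higher at 8 h than at 2 h.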

How the results depend on the processing

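On the average, 1 probe passed in limma. The count was 0 with array medians set equal (smallest adjusted p = 0.0791) and 0 with z-scores within each chip (0.488), 2 with the 24 imipramine and naive arrays alone (Fosb and Plin4), 3 among probes above the median (Fosb, Acer2 and Xdh), and 4 with chip as a fixed block (Fosb, Xdh, Acer2 and Plin4). In averages chosen after seeing the data, it was 0 without the 1 h arrays and 3 without the 4 h arrays. At any time, where 2 probes passed, the count was 0 with array medians set equal (0.109), 0 with z-scores (0.994), 1 among probes above the median (Fosb) and 1 with the 24 arrays alone (Egr2). With chip as a fixed block it was 2 again, Fosb and Plin4 in place of Fosb and Egr2. The methods' t-test counted 1738, 1659, 1521 and 1501 probes at an unadjusted p under 0.05 at 1, 2, 4 and 8 h, and 0 at each time after Benjamini-Hochberg adjustment. The cause of these moves was not tested.

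Correlations of same-numbered arrays ran from -0.404 to 0.56, and 10 of 12 were over 0.1. Most same-numbered arrays thus deviated together, but not all, and the labels do not say that a number marks a shared batch, so that the pairing was not used in the reported tests. With the replicate number as a block, 1 probe passed on the average (Fosb 0.40, adjusted p = 0.0053) and 0 at any time (0.0674 for Fosb, the smallest adjusted p, and 0.0733 for Egr2).

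Leaving out each of the 24 arrays in turn gave 0 to 1 probes at 1 h, 0 to 1 at 2 h, 0 to 0 at 4 h, 0 to 0 at 8 h, 1 to 2 on the average, 0 to 3 at any time and 0 to 0 for change over time. Cd83 passed at 1 h without naive 1 h replicate 2 and Fosb without imipramine 8 h replicate 3 (adjusted p = 0.0455). On the average Fosb passed in all 24, with an adjusted p of 0.00014 to 0.00558. Efcab7 also passed in 5, without imipramine 1 h replicate 2, imipramine 2 h replicate 2, imipramine 8 h replicate 3, naive 2 h replicate 3 or naive 4 h replicate 3 (adjusted p = 0.00812 to 0.049), and Acer2 without naive 2 h replicate 2. Egr2 lost its call at any time without imipramine 1 h replicate 1 or 2, 4 h replicate 2 or 8 h replicate 2 or 3, or naive 1 h replicate 1 or 2, 4 h replicate 1 or 8 h replicate 1 or 2 (adjusted p = 0.0621 to 0.238).

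Of 117 values of named genes, 91 kept direction and call under all alternatives run, and all 91 were values that had not passed. The values that had passed, Fosb on the average and Fosb and Egr2 at any time, each lost their call in some alternatives. Of these only Fosb on the average has a sign, and it did not change. List medians changed sign in 23 of 660 alternatives, for astrocyte (10), endothelial (6), microglia (4), integrated stress response (2) and choroid plexus (1) genes. The list medians were not run on z-scores, which have another scale. Signal over background is unknown here, so that what dim probes can show is limited.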
